A study of Mus musculus with 10 samples.

Results

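Many mouse genes are named Zfp followed by a number, for zinc finger protein. Of 333 such genes in these RNA-seq counts, 257 reached a mean CPM (counts over the library total, times 1e6) of at least 5 in at least 1 of 4 groups of sorted bone marrow B cell precursors, and those 257 of 23420 genes are described here. They were chosen by their level in these libraries, so that they are expressed is no result. The threshold was passed in all 4 groups by 228 of them, in 3 groups by 9, in 2 by 11 and in 1 by 9. For 240 it was passed in both cell types, for 7 only among the pro-B groups and for 10 only among the small pre-B groups. Just inside it lay Zfp593, Zfp455 and Zfp383, with highest group means of 5.03, 5.51 and 5.66 CPM, and just outside it Zfp105, Zfp493 and Zfp97, at 4.89, 4.58 and 4.46 CPM.

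The 10 libraries came from C57BL/6 mice. Pro-B cells were sorted as B220+, IgM- and CD43+, with 2 control libraries and 2 from mice labelled Mta2 VavKO. Small pre-B cells were sorted as B220+, IgM- and CD43- and by small size on light scatter, with 3 control and 3 Mta2 VavKO libraries. Mta2 encodes part of NuRD, a complex that remodels nucleosomes and removes acetyl groups from histones, and Vav drives expression throughout the blood lineages, so the knockout would reach the other blood cells of these mice as well. The alleles the controls carry and the ages of the mice are not given in the sources used here. The labels do not say that each library is a separate animal, so p-values measure the spread between these libraries.

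Most Zfp genes code for proteins of the C2H2 class, in which a short run of cysteines and histidines holds a zinc ion and each such finger reads a few bases of DNA. Arrays of fingers lie one after another and give each protein its own binding sequence. Many also carry a KRAB box, which binds the corepressor TRIM28 (KAP1). TRIM28 brings the histone methyltransferase SETDB1 and heterochromatin proteins to the bound site, often a retroelement. Other members have no KRAB box and act as activators, as partners of chromatin complexes, or on RNA.

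Library totals ran from 17805507 to 52127004 counts, and every member had at least 3 counts in every library. Mta2 itself was at 436 and 375 CPM in the pro-B controls and 163 and 166 CPM in the pro-B knockouts. The small pre-B libraries had 438, 246 and 412 CPM without the knockout and 199, 179 and 198 CPM with it. These Mta2 values are scaled between libraries by the TMM method. Small pre-B control 3 stood apart: histone genes took 0.953% of its counts against 0.0122% to 0.0399% elsewhere, and Malat1 1.4%. Of the 3 small pre-B controls it held the highest value for 157 of the 257 members (61.1%), against 39.5% of all 14161 genes tested. Small pre-B knockouts 1 and 2 carried Xist RNA at 2452 and 2883 CPM and at most 7.92 CPM of the Y-linked genes summed, while the other 8 libraries had 0.326 to 30.5 CPM of Xist and at least 240.3 CPM of the Y-linked genes. Markers of other cell types differed by gate, and the marker sums here are in TMM-scaled CPM. The 13 myeloid markers in the files summed to 9524 to 9573 CPM in pro-B controls, 14654 to 21566 CPM in pro-B knockouts, and 121 to 451 CPM in small pre-B libraries. The 10 B cell identity markers summed to 1488 to 2280 CPM in pro-B libraries and 8777 to 12916 CPM in small pre-B libraries, and none of them was at 0.

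The sequence just before a gene's start is where its promoter lies. Of the 6 members that fell in knockout small pre-B cells, Zfp773, Zfp418 and Zfp169 share a run of letters there and are shown for it, beside Zfp827, the member that rose. Each is the 250 bases before the RefSeq start (GRCm38.p6), 5′ to 3′ on the gene's strand, and capitals mark a match, on either strand, to ACTACA followed after any 3 bases by CCC.

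Zfp773, chr7:7136756-7137005, minus strand: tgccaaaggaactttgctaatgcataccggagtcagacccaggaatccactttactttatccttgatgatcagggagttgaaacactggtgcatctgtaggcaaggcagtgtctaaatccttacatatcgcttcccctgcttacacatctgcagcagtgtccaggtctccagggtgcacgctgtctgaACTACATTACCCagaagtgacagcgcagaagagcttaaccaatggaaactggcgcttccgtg
Zfp418, chr7:7171103-7171352, plus strand: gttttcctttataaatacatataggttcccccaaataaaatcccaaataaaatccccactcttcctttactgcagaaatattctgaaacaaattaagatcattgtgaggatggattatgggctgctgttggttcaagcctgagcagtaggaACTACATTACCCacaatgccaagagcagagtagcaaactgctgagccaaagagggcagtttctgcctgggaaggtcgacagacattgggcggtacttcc
Zfp169, chr13:48513437-48513686, minus strand: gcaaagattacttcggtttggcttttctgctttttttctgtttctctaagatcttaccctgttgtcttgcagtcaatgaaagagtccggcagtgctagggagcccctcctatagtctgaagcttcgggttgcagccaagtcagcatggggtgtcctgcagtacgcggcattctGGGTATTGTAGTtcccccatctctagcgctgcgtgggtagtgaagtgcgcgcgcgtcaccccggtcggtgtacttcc
Zfp827, chr8:79028187-79028436, plus strand: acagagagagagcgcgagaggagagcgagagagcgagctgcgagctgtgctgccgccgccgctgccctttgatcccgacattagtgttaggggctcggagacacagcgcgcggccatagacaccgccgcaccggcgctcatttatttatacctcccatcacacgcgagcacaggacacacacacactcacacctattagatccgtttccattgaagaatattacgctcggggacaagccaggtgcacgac

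The marked letters run from 62 to 51 bases before the start in Zfp773, from 99 to 88 bases in Zfp418 and, on the opposite strand, from 77 to 66 bases in Zfp169. The Zfp827 window has no match, nor have those of Zfp52, Zfp956 and Zfp329, which also fell. The Zfp827 window holds 23 CG dinucleotides, against 6 in Zfp773, 2 in Zfp418 and 13 in Zfp169. The letters resemble the start of the element that Zfp143, itself a member, is known to bind. The pattern was chosen after these windows had been seen. Of the 213 members with an entry in the promoter table, 41 (19.2%) held it, against 468 of 10381 promoters of tested genes (4.51%). By class, it was in 28 of 101 members with a KRAB box (27.7%) and in 13 of 111 others (11.7%). Neighbouring genes are counted separately in these shares. All but Zfp708 and Zfp87 of the run of 14 members on chromosome 13 described below hold the pattern. Over the same 250 bases the members had a median of 12 CG dinucleotides and the tested genes 15. Other motifs were counted on both strands over 300 bases, reaching 50 past the start. ACTACAA, which can overlap the pattern above, was in 13 members (6.10%) and 4.30% of tested genes, and the octamer ATGCAAAT in 5 members (2.35%) and 1.38%. The longer elements known for Zbtb33 and Zfp410 were in 1 and 0 members.

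Finger and box counts come from the GENCODE M21 coding sequences, translated and searched for fixed spacings. Among 255 members matched, 249 had at least 1 C2H2 finger (97.6%), against 4.52% of 12598 tested genes. The median was 10 fingers in a protein of 581 residues, and the most was 37. A KRAB box was found in 114 members (44.7%), against 1.36% of tested genes. The search was strict, and diverged boxes such as that of Zfp445 were missed. Members called without a box, here and below, are those in which none was found. KRAB members had a median of 12 fingers and the others 8. A SCAN domain, a protein pairing module, was found in 10. Zfp36, an RNA-binding protein, had no C2H2 finger and 2 of the CCCH type.

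The members lie in groups along the chromosomes. Chromosome 7 held 69, chromosome 17 held 32, chromosome 13 held 23 and chromosome 8 held 20. Runs of Zfp genes with gaps under 200000 bases included 14 members on chromosome 13 between 67038594 and 67827000, 12 of them with a KRAB box, and 14 on chromosome 17 between 21383748 and 22456689, all with one (mm10). Neighbouring copies can share reads. Over 30% of the 50-base words of Zfp808, Zfp932, Zfp59, Zfp747 and Zfp617 also occurred in another gene, so their counts are uncertain. Strand was not used in counting, per the file headers, so the 8 members that overlap a gene on the other strand (Zfp142, Zfp219, Zfp276, Zfp507, Zfp593, Zfp646, Zfp653 and Zfp687) are uncertain too.

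Levels spanned a wide range. Mean CPM over the 10 libraries, scaled by the TMM method as are all CPM values from here on, had a median of 28.9 (24.5 over all tested genes), with quartiles of 12.7 and 55.3, and ran from 3.54 for Zfp473 to 463 for Zfp207. It passed 100 CPM in 25. The 6 highest were Zfp207 (BuGZ, a spindle protein), Zfp36, Zfp106 (an RNA-binding protein), Zfp706, Zfp871 and Zfp292, and they made up 16% of the members' sum. Per kilobase of the counted gene length, Zfp36 stood above Zfp207, at 194 and 124 CPM per kilobase.

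Together the members took a larger share of the RNA in small pre-B than in pro-B libraries. Their summed share of counts was 0.983% and 0.995% in pro-B controls and 0.943% and 0.911% in pro-B knockouts. In small pre-B cells it was 1.37%, 1.39% and 1.56% in controls and 1.26%, 1.34% and 1.38% in knockouts. Every small pre-B library was above every pro-B library. KRAB members alone took 0.238% and 0.240% in pro-B controls and 0.392%, 0.387% and 0.471% in small pre-B controls.

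**Figure D1:**
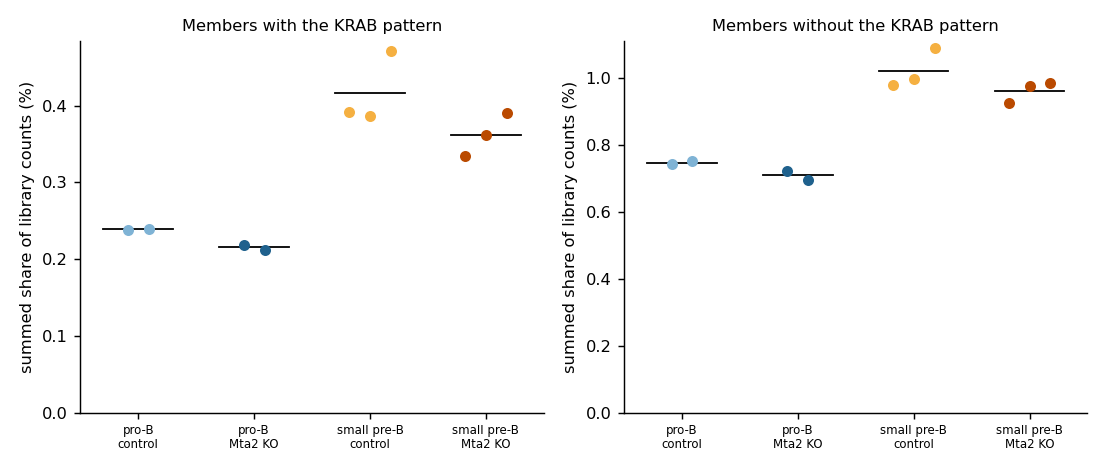
Summed share of each library's counts (%) taken by the members with (left) and without (right) the KRAB pattern, in 4 groups. Points are libraries and lines are group means; all 6 small pre-B libraries sit above all 4 pro-B libraries in both panels, and small pre-B control 3 is the highest point in each.

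The step from pro-B to small pre-B cells, in controls, moved most members upward. By edgeR's quasi-likelihood test with Benjamini-Hochberg adjustment over all 14161 genes, 164 members were higher in small pre-B controls, where the background was 26% of all genes, and 15 were lower, where it was 29.4%. The other 78 did not pass. At an unadjusted p under 0.05 it was 187 members, where the background was 61.3%. The members' median log2 fold change was 0.67, and that of all genes was -0.02. Since 10 members entered only through small pre-B groups and 7 only through pro-B groups, the same was read over all 301 Zfp genes that could be tested: 172 higher, 22 lower, median 0.61. In bulk RNA, fewer cells of a type and less RNA per cell cannot be told apart, and the pro-B gate held other cells. From pro-B to small pre-B controls, 13 of 13 myeloid, 8 of 8 plasmacytoid dendritic, 10 of 10 natural killer and 13 of 14 T cell markers fell, and 8 of 10 B cell identity markers rose. Their part in the members' change was not tested. The 2 stages also share no title number. Library totals were 48860391 to 52127004 counts in pro-B and 17805507 to 38392136 counts in small pre-B libraries. Any difference in how the 2 sets of libraries were handled coincides with the stage and cannot be told apart from it. Without small pre-B control 3 the members' counts were 164 higher and 16 lower, with a median of 0.60, where all genes gave 27.9% and 30.7%.

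KRAB members had the higher median. Of 114 with a box, 82 were higher and 4 lower, with a median log2 fold change of 0.89, and of 141 without one, 82 were higher and 10 lower, with a median of 0.54. From ratios of mean CPM without small pre-B control 3, the medians were 0.81 and 0.42. This gap between the classes was not tested. The medians were higher with more fingers, a feature that goes with the box. They were 0.47 in the 40 members with 0 to 4 fingers, 0.52 in 69 with 5 to 9, 0.76 in 87 with 10 to 14, and 0.96 in 59 with 15 or more. By position, all 5 members of the run on chromosome 9 between 20345136 and 20595193 were higher, with a median of 1.53 (1.30 from ratios without control 3). In the run of 14 on chromosome 13, 11 were higher and none lower, with a median of 1.27 (1.07 likewise). Summed over those 14, the level was 163 and 164 CPM in pro-B controls and 343, 315 and 560 CPM in small pre-B controls. The 6 members of a run on chromosome 7 between 4915217 and 5053723, none with a box found, held 0 that were higher and 2 that were lower, with a median of -0.23 (-0.03 likewise).

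**Figure D2:**
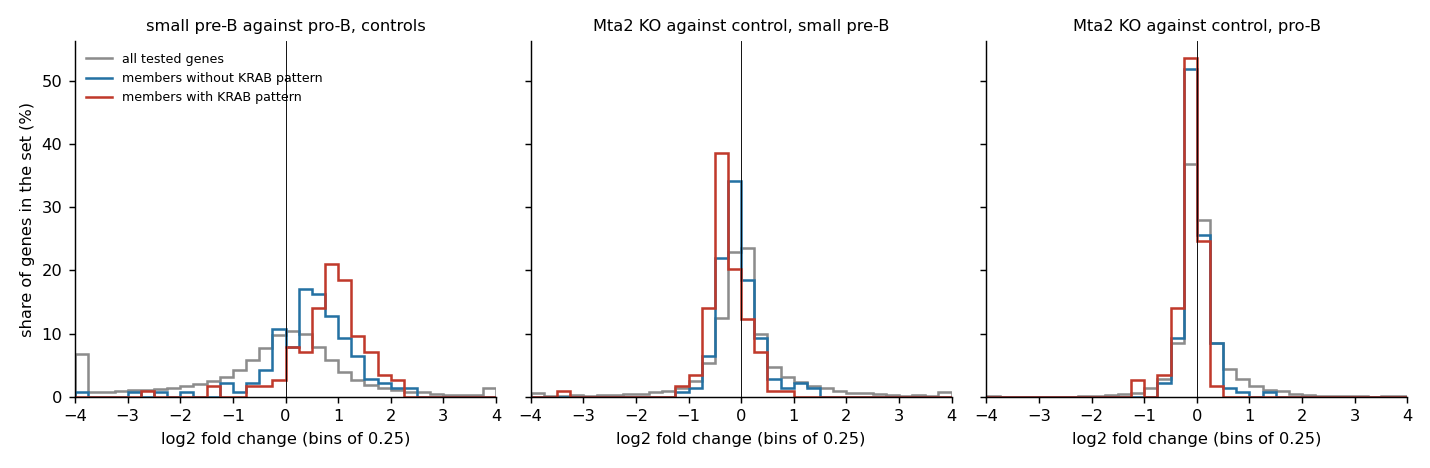
Share of genes (%) by log2 fold change in bins of 0.25 for all tested genes (grey) and for members with (red) and without (blue) the KRAB pattern, in 3 comparisons; values beyond 4 in size are in the end bins. Medians at the stage step are 0.89 with and 0.54 without the pattern, and in knockout small pre-B cells -0.30 and -0.08.

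The largest rises among members whose control libraries did not overlap were those of Zfp821 (log2 fold change 2.28), Zfp882 (2.26), Zfp2 (2.25), Zfp873 (2.17), Zfp607 (2.16), Zfp944 (2.07), Zfp867 (2.01), Zfp606 (1.97), Zfp184 (1.96) and Zfp26 (1.92), with edgeR adjusted p from 2.01e-05 to 0.000556. At this step the control libraries lay apart upward in 34.1% of all genes and 70.4% of the members, and downward in 38.9% and 8.95%. Zfp821 was at 17.5 and 16.9 CPM in pro-B controls and 85.6, 78.6 and 86.3 CPM in small pre-B controls. The groups lay far apart, and the knockouts were at 16.8 and 16.6 CPM in pro-B cells and 70.0, 72.4 and 105 CPM in small pre-B cells. Zfp26 was at 48.9 and 54.5 CPM in pro-B controls and 147, 147 and 293 CPM in small pre-B controls, the last being control 3. For Zfp2 and Zfp184 the rise is tied to the choice of members, since both entered only through small pre-B groups.

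The largest falls were those of Zfp467 (-3.98), Zfp521 (-2.94), Zfp658 (-2.53), Zfp523 (-2.30), Zfp473 (-1.80), Zfp111 (-1.48), Zfp783 (-1.48), Zfp599 (-1.37), Zfp202 (-1.14) and Zfp28 (-1.11), with edgeR adjusted p from 5.27e-06 to 0.00813. Of these, Zfp467, Zfp521, Zfp473, Zfp111 and Zfp202 entered only through pro-B groups. Zfp658, which did not, was at 56.0 and 62.5 CPM in pro-B controls and 10.3, 8.54 and 11.8 CPM in small pre-B controls. Zfp523, a relative of Zfp143, was at 34.8 and 31.6 CPM in pro-B controls and 5.46, 8.86 and 5.85 CPM in small pre-B controls. Zfp467 was at 15 and 19.4 CPM in pro-B controls and 1.78, 1.45 and 0.199 CPM in small pre-B controls. Zfp783 shares exons with Zfp956, so its counts are uncertain.

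Among members with known parts in lymphocytes or leukaemia, 4 of 7 rose from pro-B to small pre-B controls and 1 fell. For this and the next 3 groups the shares to read against are those over all genes (26% higher, 29.4% lower) and over the 257 members (63.8% higher, 5.84% lower). Zfp318, needed for the long transcript from which IgD is made, was at 35.7 and 39.5 CPM in pro-B controls and 56.1, 76.0 and 84.1 CPM in small pre-B controls (log2 fold change 0.94 ± 0.24 SE, edgeR adjusted p = 0.00976). Zfp91, a ubiquitin ligase, rose by 0.85 on the log2 scale, Zfp36, which speeds the decay of AU-rich mRNAs, by 0.60, and Zfp335, required for lymphocyte maturation, by 0.55. Zfp521, a progenitor factor that counters EBF1, was at 14.6 and 13.7 CPM in pro-B controls and 0.948, 1.33 and 3.10 CPM in small pre-B controls. The groups did not overlap, and the difference was -2.94 ± 0.56 (SE; adjusted p = 0.00203). Zfp384, a fusion partner in B cell leukaemia, had a log2 fold change of -0.02 and Zfp217, an oncogene product, one of 0.22, and neither passed.

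In the transcription group, 8 of 12 rose and none fell. Zfp292 had the largest rise, from 129 and 134 CPM to 300, 301 and 582 CPM. Its 3 small pre-B controls were all above the pro-B controls, with control 3 the highest (log2 fold change 1.58 ± 0.27 SE, adjusted p = 0.00115). Zfp281 rose by 1.12, Zfp148 by 1.03, Zfp687, a partner of ZMYND8, by 1.02 and Zfp143 by 0.75. Zfp410 is known as an activator of Chd4, the NuRD ATPase. It was at 46.5 and 44.6 CPM in pro-B controls and 92.5, 82.5 and 86.9 CPM in small pre-B controls (0.94 ± 0.11 SE, adjusted p = 0.00011). Chd4 went from 633 and 690 CPM to 698, 889 and 856 CPM, with a log2 fold change of 0.30 and an edgeR adjusted p of 0.0822. Zfp827, which can recruit NuRD, rose by 1.19, and Zfp451, a SUMO ligase, by 0.59. Zfp131, Zfp592, Zfp609, a partner of the cohesin loader, and Zfp219 had values from -0.59 to 0.33 and did not pass.

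In the RNA, ribosome and spindle group, 6 of 10 rose and none fell. Zfp326, a splicing factor, went from 29.3 and 29.4 CPM to 69.4, 66.6 and 42.8 CPM (1.02 ± 0.19 SE, adjusted p = 0.00184). Here control 3 was the lowest of the small pre-B controls, though still above both pro-B controls. Zfp622, which acts in the making of the large ribosomal subunit, rose by 0.77. Zfp207, Zfp330 and Zfp106 rose by 0.55, 0.54 and 0.46. Zfp598, the ligase that marks collided ribosomes, was at 101 and 101 CPM and then 93.7, 87.7 and 72.7 CPM, and its log2 fold change of -0.26 did not pass (adjusted p = 0.0995). Of 6 KRAB zinc finger members with known imprint or retroelement targets, 4 rose. Zfp445, a guardian of imprints, went from 165 and 162 CPM to 284, 316 and 230 CPM (0.76 ± 0.14 SE, adjusted p = 0.00146). Zfp961 rose by 1.13, Zfp568, a repressor of an Igf2 promoter, by 0.92, and Zfp932, a repressor of retroviral repeats, by 0.82. Zfp809, which silences murine leukaemia virus, and Zfp708 had values of 0.44 and 0.61 and did not pass. Zfp57, the best known imprint factor, is no member, at 0 to 0.159 CPM.

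**Figure D3:**
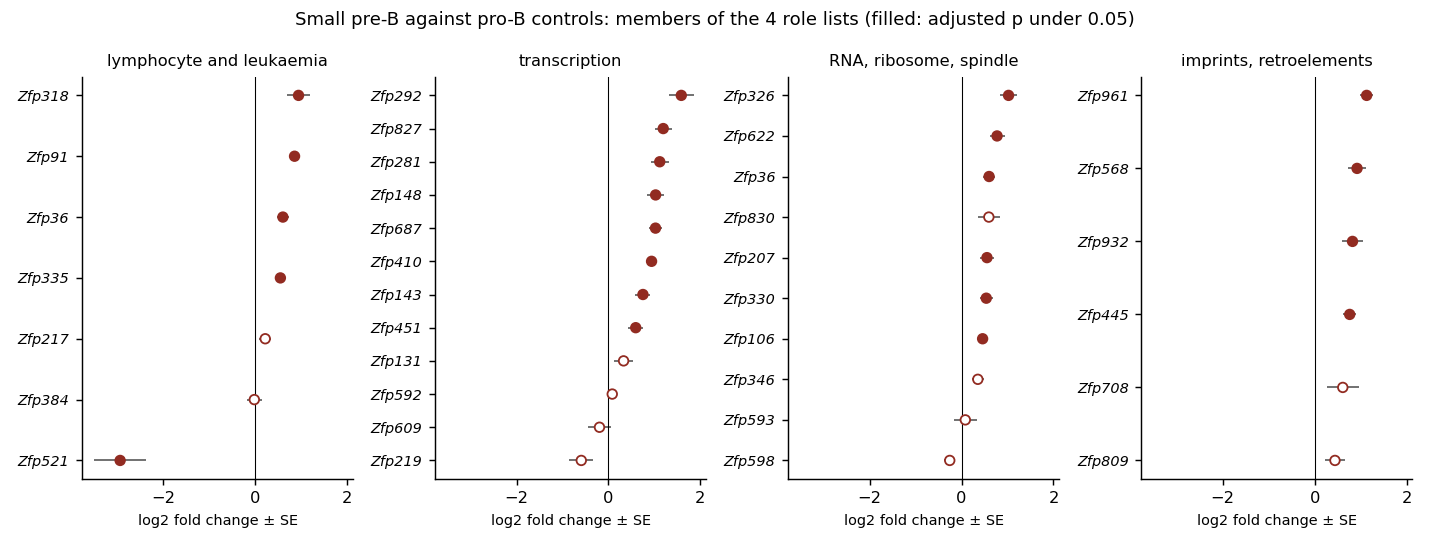
Log2 fold change, small pre-B against pro-B controls, with its standard error (bars), for the members of 4 role lists; filled points have adjusted p under 0.05. Zfp521 at -2.94 is the filled point left of 0, and Zfp292 at 1.58 is the highest.

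The partners of the KRAB box moved both ways. Of 21 genes of this machinery, 8 were higher at the step (Atf7ip, Cbx1, Ehmt1, Morc2a, Morc3, Pphln1, Smarcad1 and Trim33) and 3 lower (Chaf1b, Ehmt2 and Suv39h1), with a median log2 fold change of -0.03, where 26% of all genes were higher and 29.4% lower. Trim28 was at 428 and 418 CPM in pro-B controls and 377, 362 and 361 CPM in small pre-B controls. That is lower in all 3, but its value of -0.21 ± 0.10 (SE) did not pass (adjusted p = 0.107). Setdb1 had 0.17 ± 0.09 (SE; adjusted p = 0.13). By edgeR's test none of the 21 passed in either knockout comparison. At an unadjusted p under 0.05 there were 0 in pro-B and 1 (4.76%) in small pre-B cells, where all genes gave 6.45% and 24.7%.

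In knockout small pre-B cells 7 of the 257 members differed from controls by edgeR's quasi-likelihood test. One was higher, where the background was 1.89% of all genes, and 6 were lower, where it was 1.14%, which are 0.389% and 2.33% of the members. Zfp418 and Zfp773 became members only through the small pre-B controls, the group in which they are high, so their part in this count is tied to the choice of members. Among the 228 members at 5 CPM in all 4 groups, 1 was higher and 4 were lower (1.75%). Knockouts 1 and 2 of this comparison carried Xist RNA and at most 7.92 CPM of the Y-linked genes, while knockout 3 and all 3 controls carried Y-linked RNA. Genotype and sex-linked RNA thus largely coincide here, and their parts cannot be told apart. The 7 carry 6 to 17 fingers, and a KRAB box was found in 4 of them, all among those that fell. Zfp827, a zinc finger protein known to bring NuRD to telomeres, was the one that rose. It was at 23.5, 20.9 and 23.6 CPM in controls and 50.2, 42.4 and 45.0 CPM in knockouts. All 3 knockout libraries were above every control (log2 fold change 1.01 ± 0.16 SE, adjusted p = 0.0254).

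Zfp418, a KRAB protein, had the largest fall. It was at 6.08, 3.14 and 11.9 CPM in controls and 1.04, 0.514 and 0.373 CPM in knockouts, 606 counts in all against 39. The controls spread widely, and every knockout library was below them (-3.49 ± 0.55 SE, adjusted p = 0.0254). Zfp773, its neighbour with a KRAB box, was at 9.03, 6.61 and 8.89 CPM in controls and 3.29, 3.56 and 3.73 CPM in knockouts (-1.21 ± 0.20 SE, adjusted p = 0.0254). The promoter windows of this pair, printed above, point away from each other and lie 34.1 kb apart.

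Zfp52, a KRAB gene of the chromosome 17 run, was at 20.9, 15 and 30.0 CPM in controls and 7.61, 11.3 and 10.1 CPM in knockouts (-1.18 ± 0.26 SE, adjusted p = 0.0475). Zfp956 was at 31.9, 23.9 and 31.5 CPM and then 17.9, 14.4 and 15.9 CPM (-0.86 ± 0.15 SE, adjusted p = 0.0259), though it shares exons with Zfp783. Zfp169, with 17 fingers and a KRAB box, was at 34.3, 29.4 and 41.8 CPM and then 20.1, 23.7 and 20.2 CPM (-0.72 ± 0.15 SE, adjusted p = 0.0421). Zfp329 fell the least, from 101, 92.7 and 99.4 CPM to 67.3, 77.4 and 70.5 CPM (-0.45 ± 0.09 SE, adjusted p = 0.0414). In none of these 4 did the knockout and control libraries overlap, as for the 3 members above. Such a gap in small pre-B cells held for 13.3% of all genes upward and 11.7% downward. Over the members it was 7.39% and 19.1%.

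**Figure D4:**
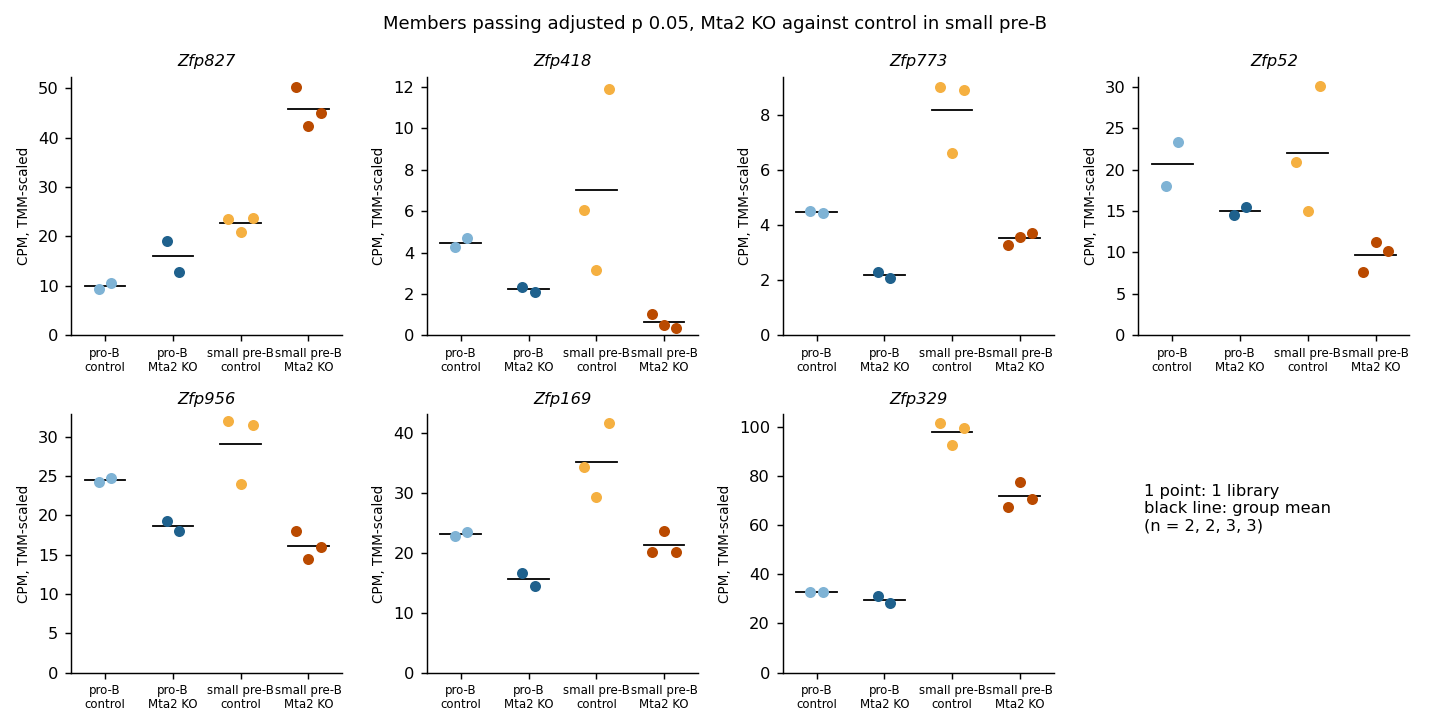
TMM-scaled CPM of the 7 members that passed in knockout small pre-B cells, by library (points) with group means (lines; n = 2, 2, 3 and 3). The 3 knockout small pre-B points lie above the controls for Zfp827 and below them for the other 6, and the 2 pro-B knockouts lie on the same side of their own controls.

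The calls, over all genes as well as over members, depend on the libraries used. Fitted on the 6 small pre-B libraries alone, none of the 257 passed by edgeR's test, nor did any of the 12478 genes tested. None of the 257 passed without pro-B control 1, pro-B control 2, small pre-B control 1, or small pre-B knockout 1 or 2, fits in which at most 10 genes passed upward and 8 downward. Without pro-B knockout 1 or 2 it was 1 higher and 0 lower, where all genes gave at most 0.0832% and 0.0208%. Lacking small pre-B knockout 3 it was 2 and 0, where all genes gave 0.85% and 0.188%. Lacking small pre-B control 3 it was 1 and 3, where all genes gave 1.27% and 0.76%. Without small pre-B control 2 it was 10 and 18, where all genes gave 6.53% and 5.08%. With the title number as a replicate block it was 0 members higher and 1 lower, where all genes gave 0.89% and 0.191%. DESeq2 called 9 members higher and 23 lower (3.5% and 8.95%), among them all 7, and 7.47% and 5.61% of all genes. The direction of each of the 7 was the same under all 20 alternatives, which adds little. Their knockout and control libraries did not overlap, so leaving libraries out could hardly reverse it, and the other alternatives refit the same counts. Some markers of other cell types also moved in knockout small pre-B cells. Of 14 T cell markers 6 were higher, and the list summed to 189 to 295 CPM in controls and 234 to 318 CPM in knockouts. Of 8 plasmacytoid dendritic markers 1 was lower, though their sum was 301 to 360 CPM in controls and 410 to 452 CPM in knockouts. The 10 natural killer markers summed to 11.8 to 147 and 110 to 210 CPM, and 0 of them passed, nor did any myeloid or B cell identity marker. The part of these cells in the result was not tested.

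Over the members as a whole, knockout values were more often below control than above. Of the 257, 183 had a log2 fold change below 0 and the median was -0.21, while among all genes 6935 of 14161 were below 0 and the median was 0.01. Without small pre-B control 3 the median was -0.08, with 171 below 0. Without control 3 and the knockouts with Xist RNA, a choice made after seeing the data that leaves 1 knockout library, it was -0.01, with 131 below 0. The median was -0.30 in KRAB members, of which 90 of 114 were below 0, and -0.08 in the others. From ratios of mean CPM it was -0.30 and -0.08 with control 3, -0.15 and -0.05 without it, and -0.05 and 0.02 with the Xist knockouts left out too. In the run of 14 on chromosome 13, 14 were below 0 with control 3 and without it, and their median log2 ratio went from -0.51 to -0.22. With the Xist knockouts left out too, 8 of the 14 were below 0 and the median was -0.11. Their summed level was 343, 315 and 560 CPM in controls and 268, 288 and 313 CPM in knockouts. The highest knockout library was close to the lowest control. The promoter pattern shown above was taken from 3 genes that fell, so their values cannot be read with it. Of the other 38 members that hold it, 31 had a log2 fold change below 0, with a median of -0.32. These include all of the chromosome 13 run but Zfp708 and Zfp87, so this is no separate observation from that run. From ratios of means the median was -0.16 without control 3 and 0.01 with the Xist knockouts left out too.

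On the upward side, where only Zfp827 passed, the smallest p-values after it were those of Zfp516 (log2 fold change 1.07, edgeR adjusted p = 0.0532), Zfp629 (0.41, 0.0749), Zfp704 (0.80, 0.0779), Zfp523 (0.72, 0.0841) and Zfp580 (1.27, 0.0982), none of which passed. Zfp516, a member that binds the demethylase LSD1, was at 21.2, 48.5 and 37.2 CPM in controls and 73.9, 80.6 and 69.7 CPM in knockouts. The groups did not overlap, and the control values were spread over a wide range. The median log2 fold changes of the lymphocyte, transcription, RNA and imprint lists in knockout small pre-B cells were -0.09, -0.05, -0.11 and -0.14, beside -0.21 over the members, and Zfp827 of the transcription list was the one call.

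In knockout pro-B cells no member passed by edgeR's test, against a background of 0.0353% of all genes higher and 0% lower. At an unadjusted p under 0.05 there were 16 members, 6 higher and 10 lower, which is 6.23% where all genes gave 6.45%. DESeq2 called 0 members higher and 2 lower (0.96% and 0.325% of all genes), and limma-voom called none. A fit on the 4 pro-B libraries alone called 4 higher and 6 lower (1.56% and 2.33% of the members, 4.89% and 1.19% of all genes). The members' median log2 fold change was -0.07, with 175 members below 0 (68.1%), against 51.2% of all genes. Both knockouts lay below both controls in 42.4% of members and 28.1% of all genes, and above them in 16% and 27.4%. The summed myeloid markers given above were higher in these knockouts, and their part in these values was not tested. The smallest p-values on the upward side were those of Zfp827 (0.68), Zfp296 (0.54), Zfp516 (0.98), Zfp580 (1.38) and Zfp768 (0.43), and on the downward side those of Zfp773 (-1.03), Zfp661 (-1.06), Zfp808 (-0.57), Zfp169 (-0.57) and Zfp180 (-0.32). Their adjusted p ran from 0.344 to 0.763. Zfp580 was at 3.73 and 3.94 CPM in controls and 9.77 and 10.1 CPM in knockouts. Zfp516 was at 34.2 and 39.5 CPM and then 66.6 and 79.2 CPM. For both, the knockouts were above the controls in each cell type.

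The 2 cell types share no library, so the 7 members called in small pre-B cells could be read in pro-B cells as a separate measurement. All 7 had the same sign there, and in all 7 the 2 knockout libraries lay beyond the 2 controls on that side. In either direction such a gap is common with 2 libraries against 2: it held for 27.4% of all genes upward and 28.1% downward. Among all 428 genes called in small pre-B cells, 90.7% had the same sign and 77.8% lay apart on the same side. Among all tested genes it was 61.9% and 37.7%. Zfp773 was at 4.53 and 4.43 CPM in pro-B controls and 2.31 and 2.08 CPM in pro-B knockouts. Zfp418 was at 4.26 and 4.68 CPM and then 2.33 and 2.10 CPM, and Zfp827 at 9.40 and 10.5 CPM and then 19.1 and 12.8 CPM. Each pair was apart, and none passed on its own. Over all 257 members, 185 had the same sign in both cell types (72.0%), and Pearson's r of the log2 fold changes across genes was 0.60, against 0.33 over all tested genes. By rank the gap was smaller, with Spearman's rho at 0.445 and 0.353. Genes are not independent replicates, and the fit shares its spread across cell types.

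**Figure D5:**
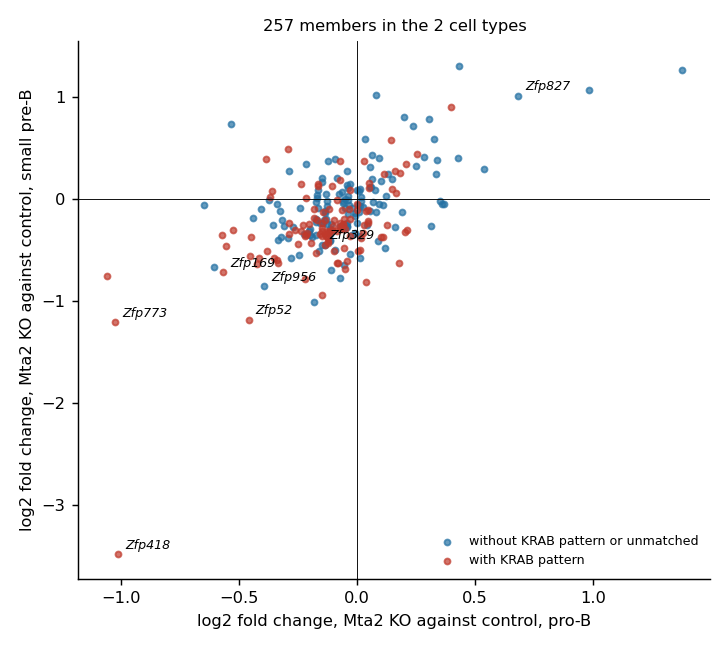
Log2 fold change of the 257 members, Mta2 knockout against control, in pro-B (x axis) and small pre-B cells (y axis), with KRAB members in red. The 7 named members passed in small pre-B cells and all lie on the same side of 0 on both axes, with Zfp418 the lowest at -3.49.

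The difference between the knockout effects in the 2 cell types was tested directly. No member passed by edgeR's test, nor did any gene, the background being 0% in each direction. At an unadjusted p under 0.05 there were 4 members, or 1.56%, where all genes gave 6.4%, and DESeq2 called none of the members, though it called 20 genes upward and 38 downward. The smallest p-values for a more positive effect in small pre-B cells were those of Zfp428 (difference of log2 fold changes 1.27), Zfp94 (0.77), Zfp574 (0.35), Zfp703 (0.94) and Zfp566 (0.79), and for a more negative effect those of Zfp418 (-2.48), Zfp775 (-0.58), Zfp677 (-0.48), Zfp329 (-0.30) and Zfp956 (-0.46). Zfp418, with -1.01 ± 0.57 (SE) in pro-B and -3.49 ± 0.55 (SE) in small pre-B cells, had an adjusted p of 0.689 for the difference.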

How the data were processed

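RNA was read with a stranded mRNA kit, per the labels' protocols. The authors deposited whole-number counts per gene, made with featureCounts 1.4.3-p1 on mm10 annotation without a strand option, per the file headers, from STAR alignments. CASAVA 1.82, STAR and the build mm9 appear in the submitters' processing notes. Unstranded counting of a stranded library mixes a gene with any antisense partner.

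From these counts, CPM was computed and scaled with TMM. Genes were kept with filterByExpr (10 counts, 15 in total), and edgeR 4.0.16 (R 4.3.3) fitted 1 mean per group over all 10 libraries with its quasi-likelihood test. Benjamini-Hochberg adjusted p under 0.05 counted as passing, over all 14161 genes. The prior count of 0.125 bears on fitted folds of low genes. The 4 comparisons were knockout against control in each cell type, the gap between both effects, and controls of one stage against those of the other. The fit was tested on simulated data. Alternatives included DESeq2 1.42.0, limma-voom 3.58.1, other scalings and filters, a fit on the groups compared, a replicate block, and leaving out each library.

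The members and lists were chosen with earlier results of these data known. Named are members that passed in a knockout comparison (or the 5 smallest p in a direction where fewer than 3 passed), the 10 largest per direction at the stage step with control libraries apart, members of 4 role lists, the 6 highest, and the 3 nearest the threshold on each side.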

Additional observations from a re-analysis of the deposited data

How the results depend on the processing

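In small pre-B cells, members called in the knockout numbered 1 higher and 6 lower. They were 0 and 1 with the title number as a replicate block (0.89% and 0.191% of all genes). On the groups compared alone they were 0 and 0, over all genes as well. DESeq2 gave 9 and 23 (7.47% and 5.61% of all genes) and limma-voom 2 and 5 (2.21% and 0.876%). When a log2 fold change of 1 or more in size was asked for too, they were 1 and 3. With the libraries with Y-linked RNA alone they were 0 and 0, over all genes as well. Without small pre-B control 3 and the libraries with Xist RNA, an alternative chosen after seeing the data, the members' median log2 fold change was -0.01. Both of these fits leave 1 knockout small pre-B library, which is assumed to vary like the other groups. Leaving out 1 library at a time gave 0 to 10 higher and 0 to 18 lower, where all genes gave 0.00698% to 6.53% and 0% to 5.08%. In pro-B cells the counts of 0 became 4 higher and 6 lower on the groups compared alone (4.89% and 1.19% of all genes). With DESeq2 there were 2 lower (0.325% of all genes). For the difference of effects every alternative gave 0. At the stage step, 164 higher became 80 with that same fold limit. Leaving out 1 library gave 116 to 168 higher and 11 to 16 lower, where all genes gave 15.8% to 27.9% and 20.9% to 30.7%.

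Among the named members, 3 small stage values changed sign. Leaving out 1 library, Zfp384 ran from -0.13 to 0.14, with 0.015 lacking pro-B control 1 and 0.14 lacking small pre-B control 3. Zfp609 ran from -0.46 to 0.027, the latter lacking small pre-B control 3, and Zfp593 from -0.061, lacking small pre-B control 2, to 0.25, with -0.033 lacking pro-B control 2. Lacking control 3 and the Xist libraries, Zfp384 was at 0.12 and Zfp609 at 0.013. The cause was not tested.

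Whether title numbers pair the samples is left undecided. Same-number deviations correlated at 0.06 in pro-B cells and at 0.09, 0.18 and 0.04 in small pre-B cells. Different-number values were -0.06 in pro-B cells and -0.18 to 0.07 in small pre-B cells. Each small pre-B library but knockout 3 correlated best with its own number. With 2 libraries in each pro-B group the deviations mirror each other, so the pro-B values differ only in sign and cannot decide it. For small pre-B control 3 the header inside its file names the number of control 2 instead, and titles were followed. Unscaled CPM moved 86 of 308 group levels of named members by more than their SD. Zfp418 has 39 counts in the 3 knockout small pre-B libraries, which limits the precision of its fold.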

Other observations

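Over the 257 members, the first principal component of log CPM carried 79.5% of the spread and set pro-B apart from small pre-B libraries, at -9.50 to -8.07 for the former and 3.26 to 9.64 for the latter. The second held 11.7% and placed small pre-B control 3 at -6.36, against -1.02 and 0.537 for the other two controls and 2.77 to 3.61 for the small pre-B knockouts. The 44 Zfp genes that were tested but stayed under the level threshold had 8 higher and 7 lower at the stage step (18.2% and 15.9%). All genes gave 26% and 29.4%. The median log2 fold change of these 44 was 0.08.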
